A study of Mus musculus with 30 samples.

Results

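The 9 genes described here encode the mouse receptors that bind the Fc tail of antibody and the oxidase that phagocytes switch on after those receptors engage. They are Fcgr1, Fcgr2b, Fcgr3, Fcgr4 and Fcer1g on the receptor side and Cybb, Cyba, Ncf4 and Rac2 on the oxidase side. The members were taken by name from the table of read counts, where all 9 of 9 were found among 43629 genes. Their messenger RNA was followed by bulk RNA-seq in 30 libraries of tibial fracture callus, the repair tissue that bridges a broken bone, with 1 library per mouse. The mice were male C57BL/6J, 20 weeks old, and every mouse had an open osteotomy through the right tibial shaft, so that no unfractured control was analysed here. Lean mice were sampled on days 3, 5, 7 and 10 after fracture (d3, d5, d7 and d10), and mice with diet-induced obesity (DIO), kept on a high-fat diet, on the same 4 days and also on d14 and d21. Each of the 10 groups held 3 mice. For lean mice nothing later than d10 was analysed here, and the diets were therefore compared on 4 days.

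Activating Fc gamma receptors are surface proteins of macrophages, neutrophils and other leukocytes that grip antibody-coated particles. Each pairs with the common gamma chain made by Fcer1g, whose cytoplasmic tail carries an activation motif (ITAM) that recruits the kinase Syk, whereas Fcgr2b carries an inhibitory motif (ITIM) that recruits the lipid phosphatase Inpp5d. Signals of this kind assemble the phagocyte NADPH oxidase: the membrane flavocytochrome of Cybb and Cyba is joined by cytosolic subunits, Ncf1 and Ncf4 among them, and by a Rac GTPase, mainly Rac2 in neutrophils, and then passes electrons to oxygen to make superoxide.

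All positions are on the mouse build GRCm38 with the GENCODE M21 annotation. The receptor genes other than Fcgr1 lie close together on chromosome 1, namely Fcgr2b (chr1:170958617-170976547, minus strand), Fcgr4 (chr1:171018920-171029761, plus strand), Fcgr3 (chr1:171051174-171064935, minus strand) and Fcer1g (chr1:171229572-171234365, minus strand). Fcgr1 lies at chr3:96282909-96293969 on the minus strand. Among the oxidase genes, Cybb is on the X chromosome (chrX:9435252-9487771, minus strand), Cyba is at chr8:122424776-122432930 on the minus strand, and Ncf4 (chr15:78244801-78262580, plus strand) and Rac2 (chr15:78559167-78572783, minus strand) share chromosome 15. All 9 are protein-coding and passed the filter on low counts in every comparison.

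Fcgr2b and Fcgr3 are near-identical copies over the part that encodes their antibody-binding domains, which bears on how far their counts can be told apart. Their transcripts aligned over 512 bases with 19 mismatches (96.3% identity), and the longest run without a mismatch was 129 bases, longer than the 53 bases read from each end of a fragment. Of the 1733 distinct runs of 53 bases in the Fcgr3 transcripts, 157 (9.06%) also occurred in another gene, which was Fcgr2b in each case. Of the 5697 in those of Fcgr2b, 389 (6.83%) occurred in another gene. These were spread over 137 genes, Fcgr3 among them, so that this share is not one with Fcgr3 alone. The stretch shown lies in exon 3 of both transcripts, read 5′ to 3′ on the minus strand of chromosome 1 (GRCm38), and its single mismatch is in capitals.
Fcgr2b, chr1:170967980-170968099: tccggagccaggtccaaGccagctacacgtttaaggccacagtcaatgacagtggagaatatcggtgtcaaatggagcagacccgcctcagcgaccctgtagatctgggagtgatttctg
Fcgr3, chr1:171057691-171057810: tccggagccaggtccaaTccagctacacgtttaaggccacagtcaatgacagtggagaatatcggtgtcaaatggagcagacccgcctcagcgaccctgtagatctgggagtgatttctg
Apart from that base the 120 bases are the same, so a read that falls inside them without covering it, and whose mate does not differ either, could come from either gene. How such reads were counted is not given in the sources used here, and the values of Fcgr2b and Fcgr3 below carry that uncertainty. Fcgr2b also shares 155 exon bases with an antisense gene, Gm38204, on the other strand.

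The start sites of the members were examined for GAGGAA, the core of the sequence bound by PU.1, the myeloid transcription factor encoded by Spi1. Promoter windows of 300 bases, from 250 before to 50 after each start site, were available from RefSeq (GRCm38.p6) for 7 of the 9 members, with none for Ncf4 and Rac2. The letters occurred on either strand in 4 of the 7 members and in 28.3% of all 32851 windows, so their presence is common. The 4 windows that hold them are shown from 70 bases before to 20 after the start, 5′ to 3′ on the gene's own strand, with the match in capitals, where it reads TTCCTC because each match lies on the opposite strand.
Fcgr1, chr3:96293950-96294039, minus strand: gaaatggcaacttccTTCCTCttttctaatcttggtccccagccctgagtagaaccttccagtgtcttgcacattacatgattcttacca
Fcgr3, chr1:171059384-171059473, minus strand: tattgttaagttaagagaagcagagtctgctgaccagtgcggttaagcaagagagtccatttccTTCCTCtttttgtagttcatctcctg
Fcgr4, chr1:171018856-171018945, plus strand: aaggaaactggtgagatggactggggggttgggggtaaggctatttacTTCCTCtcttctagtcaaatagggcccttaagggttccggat
Cybb, chrX:9469305-9469394, minus strand: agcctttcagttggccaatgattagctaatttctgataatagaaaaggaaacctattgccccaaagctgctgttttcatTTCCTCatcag
Counted from the start site, the match began at base -55 in Fcgr1, at -6 in Fcgr3, at -22 in Fcgr4 and at +10 in Cybb. Fcgr3 has another RefSeq start, with the window chr1:171059375-171059464, from which the same match began at -15. The RefSeq starts used for Fcgr3 and Cybb lie inside the genes as GENCODE M21 draws them. A match of letters is a description and does not show that the factor binds there.

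The libraries held 13247122 to 26365620 counts, and no 2 libraries of a group agreed within sampling noise. Cartilage and bone genes were present in all of them, with a list of 8 such markers summing to 11967 to 119086 CPM (counts scaled to a common library size, with TMM factors), and the 5 leukocyte genes listed here were detected in every group. The first replicate of lean d10 stood apart, with the highest cartilage and bone sum and the lowest Ptprc, the pan-leukocyte gene CD45, at 18.3 CPM against 57.2 and 64.8 in the other two mice of that group. In whole tissue, fewer cells of a type and less RNA per cell cannot be told apart, and this holds for every result that follows.

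Per length of exon, the genes of the shared partners were the most abundant members. On lean d3 the mean was 313 ± 36.9 RPKM (CPM divided by exon length in kilobases, SD, n = 3) for Fcer1g and 282 ± 23.8 RPKM for Cyba. Rac2 followed at 118 ± 45.9 RPKM, Fcgr3 at 84.3 ± 14.0 RPKM and Ncf4 at 70.3 ± 21.9 RPKM. The catalytic subunit Cybb stood at 37.8 ± 21.8 RPKM, and the lowest members were Fcgr2b at 20.7 ± 2.27 RPKM, Fcgr1 at 20.0 ± 3.61 RPKM and Fcgr4 at 16.5 ± 0.886 RPKM. Thus the partner that stabilises the flavocytochrome was far above the subunit that carries the electrons, and the gamma chain was above the summed activating receptors by 2.43 to 2.73 times in the 3 lean d3 libraries. Exon length here joins all annotated exons of a gene, which gives 5790 bases for Fcgr2b, while its transcript aligned above has 3544. Without division by length, Fcgr2b had a lean d3 mean of 120 CPM, above Fcgr1 (51.8 CPM) and Fcgr4 (20.7 CPM).

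**Figure D1:**
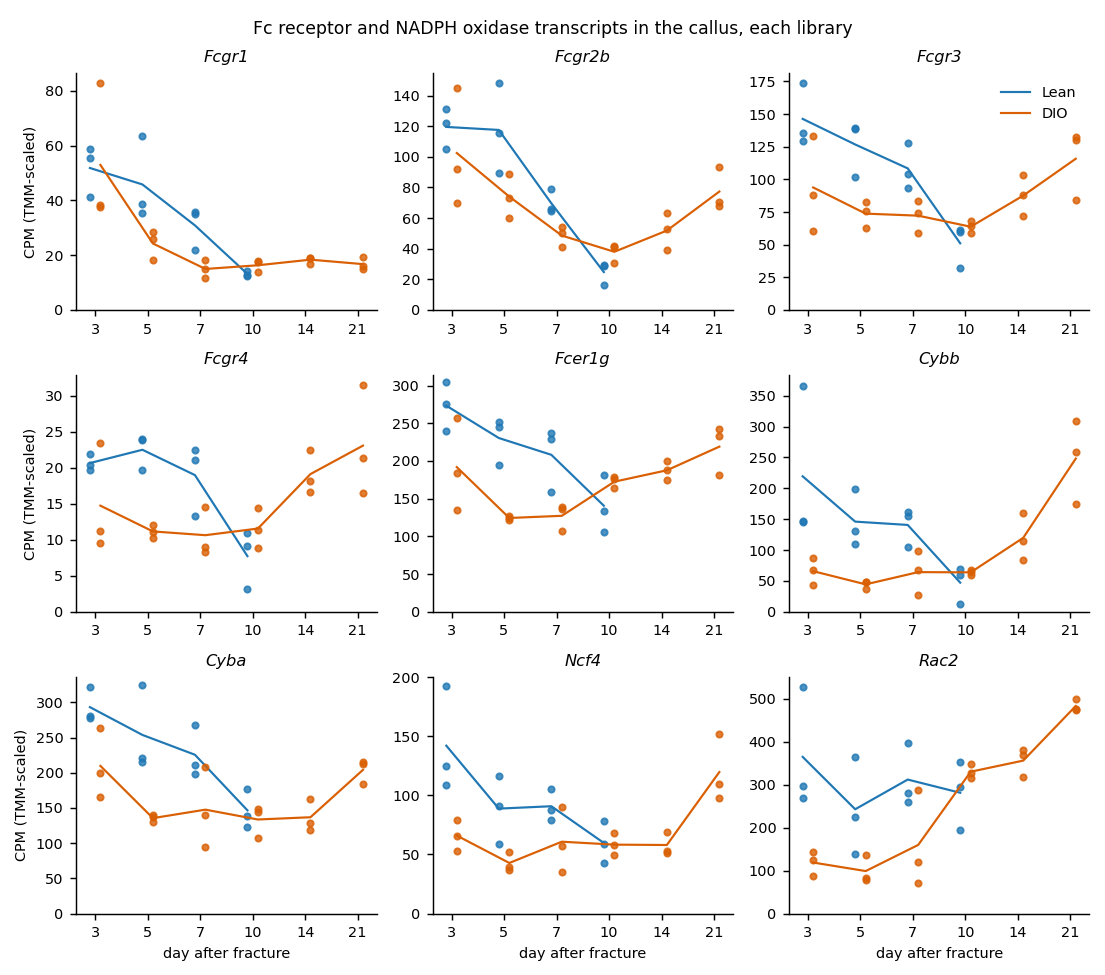
Level of each member (TMM-scaled CPM, vertical axis) by day after fracture (horizontal axis, evenly spaced days) in lean (blue) and DIO (orange) callus; points are single mice and lines join group means. On d5 the 3 DIO points lie below the 3 lean points in all 9 panels, narrowly for Fcgr2b and Rac2. Rac2 and Cybb reach their highest group means on DIO d21.

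On d5 after fracture the DIO callus held less of all 9 messengers than the lean callus in every mouse by TMM-scaled CPM. The margin was slight for Fcgr2b and Rac2. Of the 9 members, 3 passed the test. Cybb was 3.28-fold lower, Fcgr4, the activating receptor for IgG2 antibodies, was 2.01-fold lower, and Fcer1g was 1.85-fold lower. The comparison asks whether obesity alters the callus during the inflammatory phase, and it was made in the same way on each of the 4 days that both diets shared. In it, 0.948% of the 15722 genes tested were lower in DIO by edgeR's quasi-likelihood test.

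Cybb on d5 was 109.5, 198 and 130 CPM in the lean mice and 48.4, 48.2 and 36.4 CPM in the DIO mice. The highest DIO value was thus less than the lowest lean one by a wide margin, and the fitted log2 difference was -1.72 ± 0.23 (SE, edgeR adjusted p = 0.0342). Fcgr4 was 23.9, 24 and 19.7 CPM in lean and 11.1, 12.1 and 10.3 CPM in DIO callus, a tight separation of -1.01 ± 0.14 (log2, edgeR adjusted p = 0.0378). Fcer1g was 245, 251 and 195 CPM in lean against 127, 124 and 121 CPM in DIO callus (-0.89 ± 0.13, log2, edgeR adjusted p = 0.0378). The 3 DIO values of Fcer1g differed from one another by few CPM, while lean mouse 3 was the nearest to them.

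For the other 6 members the d5 groups also did not overlap, but the adjusted p stayed over 0.05. For Fcgr2b the lowest lean mouse had 89.2 CPM and the highest DIO mouse 89.0 CPM. Scaled by raw totals these mice had 89.8 and 91.1 CPM, so that the groups overlapped. The margin of Rac2 was also small, with a lowest lean value of 138.8 CPM and a highest DIO value of 137.1 CPM. Cyba differed by -0.90 ± 0.17 (log2, edgeR adjusted p = 0.0582), and Fcgr3, the low-affinity activating receptor, by -0.78 ± 0.16 (log2, edgeR adjusted p = 0.0695). Ncf4, the subunit that binds the phagosome lipid, followed at -1.05 ± 0.25 (edgeR adjusted p = 0.0896). Rac2 (-1.29 ± 0.36), Fcgr1, the high-affinity receptor (-0.92 ± 0.25), and Fcgr2b (-0.67 ± 0.21) had adjusted p-values from 0.118 to 0.151. All 9 DIO groups lying wholly below lean compares with 12.3% of all genes tested on d5, and the median log2 fold change of the members was -0.92 beside 0.01 over all genes. DESeq2 called all 9 lower on d5, where it called 4.62% of 24156 genes in either direction. These genes did not pass through the count filter used for edgeR, so the shares of the tools rest on different gene sets. The edgeR count moved with single mice: without lean mouse 2, or without any of the 3 DIO mice, 0 members passed, without lean mouse 1 it was 5, without lean mouse 3 it was 6, and with all 30 libraries in 1 fit it was 0.

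On d3 no member passed the edgeR test, and none of the 15772 genes did (0%), although 2374 genes and 5 members had an unadjusted p under 0.05. On that day the libraries of the 2 diets lay apart for the oxidase genes and overlapped for the receptor genes. That contrast between gene sets was not tested, and it does not hold for the size of every difference. The fitted log2 differences of Fcgr3 (-0.63), Fcer1g (-0.50) and Fcgr4 (-0.48) were as large as that of Cyba (-0.47). Their overlap came from DIO mouse 1 alone. DIO libraries were all below lean ones for Cybb, Cyba, Ncf4 and Rac2, where 12% of all genes tested had that arrangement, and overlapped them for all 5 receptor genes. Rac2 was 298, 529 and 268 CPM in lean and 126, 143 and 87.4 CPM in DIO callus, or -1.61 ± 0.29 (log2, edgeR adjusted p = 0.093). Cybb was 145, 366 and 147 CPM in lean and 86.4, 67.1 and 43.6 CPM in DIO callus, or -1.73 ± 0.40 (log2, edgeR adjusted p = 0.121). Lean mouse 2 held by far the most Rac2 and Cybb of that group, yet the other two lean mice still exceeded every DIO mouse.

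Ncf4 on d3 stood at 125, 192 and 109 CPM in lean and at 79.4, 65.8 and 52.7 CPM in DIO callus (-1.09 ± 0.23, log2, edgeR adjusted p = 0.114). Ncf1, a companion subunit outside the member list, gave -1.24 ± 0.25 (log2, edgeR adjusted p = 0.102), while the ubiquitous GTPase Rac1 gave -0.06 ± 0.11. Fcgr1 was 58.7, 41.2 and 55.6 CPM in lean and 82.9, 37.5 and 38.5 CPM in DIO callus. Its groups overlapped, DIO mouse 1 being the highest of all 6, and its log2 fold change was 0.04 with a 95% interval from -0.56 to 0.64. Fcgr2b, with -0.21 and an interval from -0.69 to 0.27, overlapped likewise. DESeq2, without the count filter, called 3.09% of 24381 genes on d3. With DESeq2, Cybb (adjusted p = 0.0436), Ncf4 (adjusted p = 0.000694) and Rac2 (adjusted p = 1.87e-06) were lower and no other member was called. With edgeR, Rac2 alone passed once lean mouse 3 was left out (edgeR adjusted p = 0.0375).

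On d7 all 9 fitted differences were again negative, with a median log2 fold change of -0.70 beside -0.0013 over all genes, and 0 members passed while 2.32% of 15753 genes did. Unadjusted p-values were under 0.05 for 7 members and for 2614 genes. The DIO libraries were all below lean for Fcgr1, Fcgr2b, Fcgr3, Fcer1g and Cybb, beside 11.9% of all genes, and overlapped lean for Fcgr4, Cyba, Ncf4 and Rac2. Fcgr1 was 35.7, 35.0 and 22.0 CPM in lean and 15.0, 18.2 and 11.7 CPM in DIO callus, or -1.03 ± 0.25 (log2, edgeR adjusted p = 0.0664). Rac2 was 259.6, 397 and 280 CPM in lean and 121, 70.3 and 289 CPM in DIO callus, so that DIO mouse 3 lay among the lean mice. Without that mouse Rac2 and Cybb passed (-1.68 and -1.56, log2, edgeR adjusted p = 0.0246 and 0.0475), and without lean mouse 3 Fcgr1 did (adjusted p = 0.0488). DESeq2, which without the count filter called 3.87% of 23837 genes, called Fcgr1, Fcer1g and Cybb lower.

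On d10 lean and DIO libraries overlapped for 8 of the 9 members, and none passed with either tool, where edgeR called 0% of 15341 genes and DESeq2 called 56 genes. The unadjusted p was under 0.05 for 1 member and 1082 genes. Fcgr2b was the exception to the overlap, at 16.1, 28.7 and 29.4 CPM in lean and 41.3, 41.8 and 30.9 CPM in DIO callus, with all DIO libraries above lean as in 6.86% of genes. The fitted log2 difference was 0.63 ± 0.26 (edgeR adjusted p = 0.686). Cybb was 12.2, 69.4 and 59.9 CPM in lean and 67.0, 59.2 and 65.2 CPM in DIO callus, so that its fitted difference of 0.45 rested on lean mouse 1 and was -0.02 without it. For Ncf4 (-0.02 ± 0.23) and Cyba (-0.12 ± 0.20) the sign depended on which mouse was left out, and for Ncf4 on whether CPM were scaled by TMM factors or by raw totals.

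**Figure D2:**
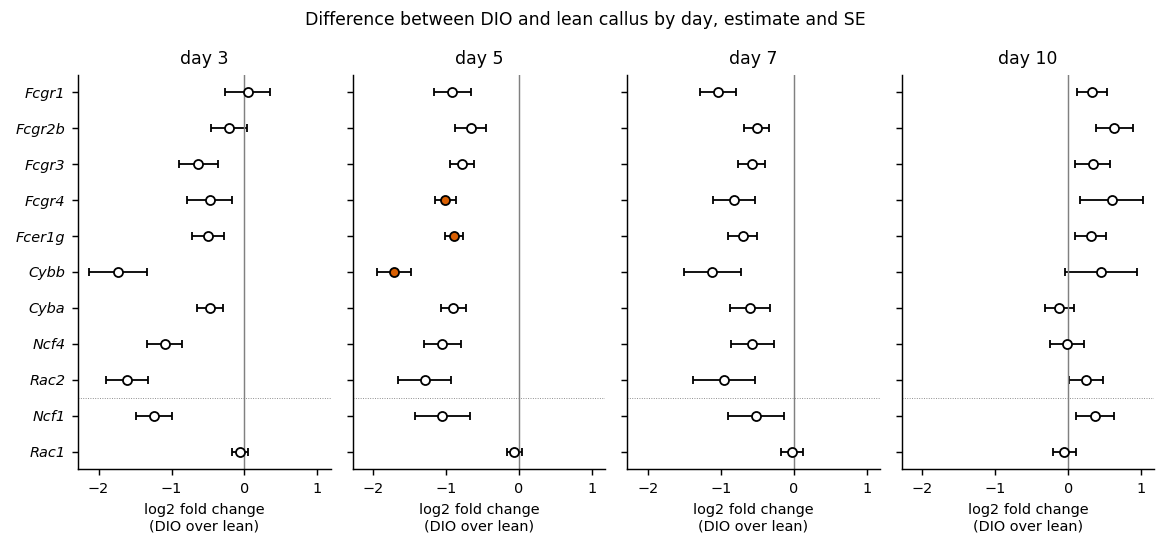
Log2 fold change of DIO against lean callus (horizontal axis) for each member, and under the dotted line for Ncf1 and Rac1, on d3, d5, d7 and d10, with bars of 1 SE from the edgeR fit of that day; filled points passed an adjusted p of 0.05. The 3 filled points are Cybb, Fcgr4 and Fcer1g on d5, and most points of d10 lie to the right of those of d7.

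Whether the diet difference itself changed over the 4 shared days was tested with an interaction term over 24 libraries, and 0 of 9 members passed (lowest edgeR adjusted p = 0.0939, Fcer1g), beside 1.65% of 17057 genes. For the step from d7 to d10 all 9 fitted changes were positive, with a median of 1.14 on the log2 scale, 0 passed and 5.07% of genes did. The nearest were Fcer1g with 1.01 ± 0.30 (edgeR adjusted p = 0.0504), Fcgr1 with 1.36 ± 0.41 (edgeR adjusted p = 0.0583) and Fcgr2b with 1.14 ± 0.36 (edgeR adjusted p = 0.0639). Unadjusted p-values were under 0.05 for 7 members in each of these tests, beside 3137 of the 17057 genes in the first and 3952 in the second. DESeq2 called 3 members in each, and its share over all genes is not given here. Another fit of the 24 libraries drew the course of each diet as a quadratic curve in the day, in place of separate days. Its test of all diet terms together, which includes a constant difference between diets, was passed by 9 of 9 members and by 8.13% of genes.

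Several lists of cell type markers also differed between diets on these days. The 5 leukocyte genes summed to 1214 to 1822 CPM in lean and 677 to 742 CPM in DIO callus on d5, and Ptprc was called lower on d5 (-0.96 ± 0.15, edgeR adjusted p = 0.0432) and on d7 (-0.97 ± 0.20, edgeR adjusted p = 0.0418). Neutrophil markers, a list of 12, summed to 12497 to 27343 CPM in lean d3 and 2535 to 4122 CPM in DIO d3 callus. All 12 had a negative fitted difference on d3, d5 and d7, and 0 of them passed. The 12 monocyte and macrophage markers overlapped on d3, at 2085 to 2307 CPM in lean and 1272 to 2643 CPM in DIO callus, and did not overlap on d5 (2066 to 2717 against 1482 to 1760 CPM) or d7 (1496 to 2259 against 1073 to 1215 CPM), where Csf1r and Cd68 passed. Osteoclast markers, which include genes of the same myeloid lineage, summed to 4179 to 5185 CPM in lean and 1530 to 2260 CPM in DIO callus on d7, and 7 of the 7 tested were lower. On d5, the day of the members' calls, their sums were 1951 to 2481 CPM in lean and 2269 to 3139 CPM in DIO callus, 7 of 8 having a positive fitted difference and 0 being called. Other cell lists held d5 calls too, all lower in DIO callus, where 0.948% of genes were. They were 2 of 7 dendritic, 2 of 6 T and NK cell and 1 of 6 platelet markers tested. The dendritic list summed to 264 to 374 CPM in lean and 145 to 154 CPM in DIO callus on d5. None of the markers on these lists was at 0 throughout a group, and their part in the members' differences was not tested.

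**Figure D3:**
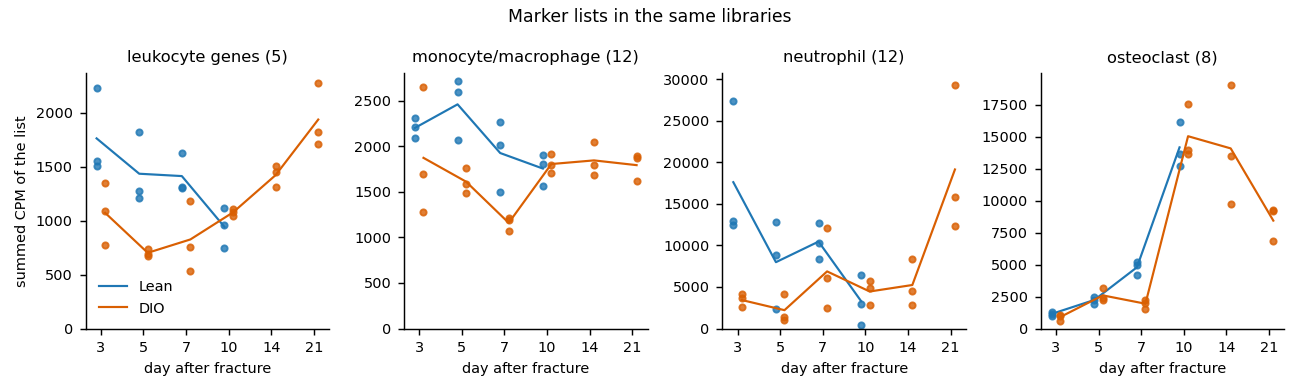
Summed CPM (vertical axis) of the leukocyte, monocyte and macrophage, neutrophil and osteoclast marker lists by day after fracture in lean (blue) and DIO (orange) callus; points are single mice and lines join group means. Neutrophil markers of the 3 lean d3 mice lie far above those of the 3 DIO d3 mice, and leukocyte genes of DIO d5 lie between 677 and 742 CPM, under all lean d5 values.

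Relative to Ptprc the members differed among themselves on d3, on the oxidase side as well as on the receptor side. The RPKM ratio of Cybb to Ptprc was 3.27 to 4.50 in lean d3 and 2.03 to 2.1 in DIO d3 callus, and that of Rac2 was 11.3 to 12.6 and 5.72 to 8.11. For both genes the DIO ratios lay below every lean one on d3. The other two oxidase genes overlapped, with ratios of 6.80 to 8.06 in lean and 5.55 to 7.26 in DIO callus for Ncf4 and of 22.1 to 35.2 and 33.7 to 44.6 for Cyba. Fcgr2b went the other way, at 1.62 to 2.75 in lean and 2.80 to 3.54 in DIO callus, so that every DIO ratio lay above the lean ones. The ratios of Fcgr3 (7.16 to 10.2 in lean, 8.87 to 10.8 in DIO), Fcgr1 (1.14 to 2.96 and 2.54 to 4.51), Fcgr4 (1.25 to 2.11 and 1.56 to 2.63) and Fcer1g (24.8 to 41.2 and 36.9 to 43.1) overlapped. On d5 the ratio of Cybb was 2.44 to 3.66 in lean and 1.603 to 2.13 in DIO callus, again without overlap. For Fcer1g, also called on d5, the ratios were 30.8 to 36.4 in lean and 34.1 to 37.2 in DIO callus, which overlapped. Those of Fcgr4, called on d5 too, overlapped at 2.04 to 2.49 in lean and 2.096 to 2.31 in DIO callus. The ratios of the other members overlapped on d5 as well. These ratios are descriptions within each library and were not tested.

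The neighbours of the members in the pathway were followed as fixed lists. Among 18 genes of ITAM signalling, 17 had a lower fitted mean in DIO callus on d3, 18 on d5 and 17 on d7. Syk (-0.91 ± 0.14) and the phosphoinositide kinase Pik3cd (-1.17 ± 0.18) passed on d5, both with an edgeR adjusted p of 0.0432, and Btk, Lat2 and Lcp2 passed on d7, with log2 fold changes of -1.05, -0.76 and -1.03. The list of other oxidase subunits, regulators and homologs gave 1 call among the 11 tested on d5, the Rac exchange factor Dock2 (-1.14 ± 0.20, edgeR adjusted p = 0.0475), and 0 on d3, d7 and d10. Of 11 ITIM receptors and their phosphatases, Clec4a2 alone passed on d5 (-0.89 ± 0.14, edgeR adjusted p = 0.0432). Other immunoglobulin receptors gave 0 calls on all 4 days, with 7 to 9 of the 12 listed passing the filter.

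Within lean mice the receptors and the oxidase were highest early and fell by d10. Between d3 and d10, 8 of 9 members fell while Rac2 did not pass, and 14.1% of 16471 genes were lower in that comparison. The mean of Ptprc went from 179 CPM on lean d3 to 46.8 CPM on lean d10. Relative to Ptprc (RPKM), no member lay wholly lower on d10. The ratios lay wholly higher for Fcer1g (24.8 to 41.2 on d3, 43.3 to 122 on d10), Ncf4 (6.80 to 8.06, 8.18 to 21.1) and Rac2 (11.3 to 12.6, 26.9 to 63.0). Those of the other members overlapped. These ratios were not tested. Fcgr2b went from 105, 131 and 122 CPM on d3 to 16.1, 28.7 and 29.4 CPM on d10, a 4.71-fold decrease (-2.24 ± 0.24, log2, edgeR adjusted p = 0.000176). Fcgr1 went from 58.7, 41.2 and 55.6 CPM to 12.5, 14.2 and 12.7 CPM, a 3.85-fold decrease (-1.94 ± 0.26, log2, edgeR adjusted p = 0.000609). The d3 and d10 libraries of both genes were far apart, and the 3 d10 mice gave nearly the same Fcgr1 level.

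Cybb fell 4.52-fold (-2.18 ± 0.54, log2, edgeR adjusted p = 0.0118), from 145, 366 and 147 CPM to 12.2, 69.4 and 59.9 CPM. Fcgr3 fell 2.79-fold, Fcgr4 2.61-fold, Ncf4 2.31-fold, Cyba 1.95-fold and Fcer1g 1.89-fold, with edgeR adjusted p-values between 0.0015 and 0.0132. Rac2 was 298, 529 and 268 CPM on d3 and 195, 353 and 296 CPM on d10, overlapping, with -0.33 ± 0.35 (log2, edgeR adjusted p = 0.497). Leaving out any 1 lean library gave 7 or 8 calls in this comparison. The 95% interval for Rac2 ran from -1.02 to 0.35.

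Between neighbouring days the lean calls lay in the last step. No member passed from d3 to d5 (0.449% of genes did) or from d5 to d7 (0%), and DESeq2 also called 0 members there. From d7 to d10 Fcgr1, Fcgr2b and Fcgr3 fell (-1.22, -1.48 and -1.07, log2, with adjusted p-values by edgeR of 0.0379, 0.0201 and 0.0421), beside 1.65% of genes called lower. These 3 calls were lost when any of the 3 lean d7 mice was left out, and only 1 call remained without lean d3 mouse 1 or 3, lean d5 mouse 2 or lean d10 mouse 1. DESeq2 called 6 members, and its share over all genes in that step is not given here. Across the 4 lean days together 7 members differed, where 19% of genes did, and Cybb (edgeR adjusted p = 0.0626) and Rac2 (0.60) did not pass. That count was 3 without lean d3 mouse 2 or lean d10 mouse 3 and 4 without any of lean d3 mouse 1, lean d7 mouse 1 or 2, or lean d10 mouse 1.

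Pathway genes around the members fell in lean callus as well. From d3 to d10, 14 of 18 ITAM signalling genes were lower and 0 higher, beside the 14.1% of all genes called lower, led by the Src-family kinase Fgr (-2.50 ± 0.34) and by Vav1 (-1.67 ± 0.23), Card9 and Lyn. Of 11 ITIM genes 8 were lower, with Inpp5d, the phosphatase that Fcgr2b recruits, at -1.34 ± 0.13 (log2, edgeR adjusted p = 9.05e-05). Ncf1 (-1.90 ± 0.36) fell, as did Dock2 and Arhgdib, while the homolog Duox1, named as the 1 gene of the list that rose (1.11 ± 0.33), went the other way, giving 4 lower and 1 higher of 11. Fcgrt, which encodes the neonatal Fc receptor that recycles IgG, rose by 1.5 ± 0.24 (log2, edgeR adjusted p = 0.00138), and Fcrlb and Ms4a2 fell. The osteoclast list rose in 8 of 8 genes over the same days, with sums of 1002 to 1325 CPM on d3 and 12698 to 16156 CPM on d10, and neutrophil markers went from 12497 to 27343 CPM to 416 to 6437 CPM, with 7 of 12 lower. Their part in the members' decrease was not tested.

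In DIO mice the members did not follow a common course. All 9 differed among the 6 days, where 59.1% of 16995 genes did, and 6 to 9 did so when any 1 library was left out. Fcgr1 fell early and stayed low, Cybb, Ncf4 and Rac2 rose late, and the remaining 5 showed no call between the first and last day. Between d3 and d21, 3 members were higher, beside 23.5% of genes, and 1 was lower, beside 21.8%. The mean of Ptprc went from 99.9 CPM on DIO d3 to 231 CPM on DIO d21. Relative to Ptprc (RPKM), Cybb and Rac2 lay wholly higher on d21. Ncf4 (5.55 to 7.26 on d3, 3.71 to 5.63 on d21) and Fcgr4 overlapped. Fcgr1, Fcgr2b, Fcgr3, Fcer1g and Cyba (33.7 to 44.6, 12.1 to 24.2) lay wholly lower. These ratios were not tested.

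Rac2 in DIO callus was 126, 143 and 87.4 CPM on d3, 137, 77.8 and 82.1 CPM on d5, and 121, 70.3 and 289 CPM on d7. It then stood at 316, 328 and 348 CPM on d10, at 319, 368 and 382 CPM on d14 and at 499, 475 and 476 CPM on d21. From d10 on every library exceeded every library of d3 to d7, and the 3 d21 mice lay close together. The difference between d21 and d3 was 4.07-fold (2.02 ± 0.36, log2, edgeR adjusted p = 0.00024). The step from d7 to d10 gave 1.05 ± 0.35 (log2, edgeR adjusted p = 0.0579), 0 members passed it and 13% of genes did. With DESeq2 Rac2 passed that step, and in edgeR 1 member passed without DIO d7 mouse 3.

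Cybb in DIO callus was 86.4, 67.1 and 43.6 CPM on d3 and 48.4, 48.2 and 36.4 CPM on d5. Later it measured 115, 160.3 and 84.3 CPM on d14 and 309.8, 175 and 259 CPM on d21. The lowest d21 mouse was above the highest d14 mouse. From d14 to d21 Cybb rose 2.07-fold (1.05 ± 0.36, log2, edgeR adjusted p = 0.0467), and from d3 to d21 it rose 3.77-fold (1.92 ± 0.36, log2, edgeR adjusted p = 0.000429). Ncf4 was 51.6, 69.1 and 53.3 CPM on d14 and 152, 97.6 and 109.9 CPM on d21, again without overlap, and rose 2.06-fold (1.05 ± 0.27, log2, edgeR adjusted p = 0.0136) from d14 and 1.81-fold from d3 (edgeR adjusted p = 0.0148). In the d14 to d21 comparison 10.6% of genes were higher. Both calls were lost without DIO d14 mouse 1 or 3 or DIO d21 mouse 1, and 1 call remained without DIO d21 mouse 3, with all 30 libraries in 1 fit, or without any of DIO d3 mouse 2, d5 mouse 1, 2 or 3, d7 mouse 1, or d10 mouse 1, 2 or 3. From d3 to d21, leaving out 1 library gave 3 to 6 calls.

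Fcgr1 took the opposite course. It was 82.9, 37.5 and 38.5 CPM on DIO d3, 18.4, 28.5 and 25.9 CPM on d5 and 16.1, 14.9 and 19.2 CPM on d21. From d5 on all its values lay under those of d3, and it fell from d3 to d21 (-1.66 ± 0.27, log2, edgeR adjusted p = 0.0001). From d3 to d5 Fcgr1 was the 1 member that fell (-1.13 ± 0.26, log2, edgeR adjusted p = 0.0356), beside 0.282% of genes. That early call was lost without DIO d3 mouse 1, the highest of its group, without any DIO d5 mouse or without DIO d14 mouse 1, and 2 members were called without DIO d3 mouse 3 and with DESeq2. No member passed from d5 to d7 (0.0177% of genes) or from d10 to d14 (0.759%), with either tool.

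For the other members the difference between DIO d3 and d21 was not called. Fcer1g was 257, 184 and 135 CPM on DIO d3, 127, 124 and 121 CPM on d5, and 242, 181 and 234 CPM on d21. Its values of d21 and d3 overlapped, with 0.19 ± 0.19 (log2, edgeR adjusted p = 0.424). Cyba gave -0.04 ± 0.23, Fcgr3 0.30 ± 0.24, Fcgr4 0.65 ± 0.31 and Fcgr2b -0.41 ± 0.24 between d21 and d3, none of which passed. Fcgr4 was 14.7 ± 7.55 CPM on DIO d3, had its highest group mean on DIO d21 (23.1 ± 7.67 CPM) and its lowest on lean d10 (7.73 ± 4.08 CPM). When the 10 groups were put in order of their mean, neighbouring groups overlapped for every member, with the exception of Fcgr2b, where lean d7 lay wholly above DIO d14 and DIO d10 wholly above lean d10.

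Genes around the members were read against the 23.5% of all genes called higher and the 21.8% called lower between DIO d3 and d21. Of 11 other oxidase genes 6 rose and 2 fell between d3 and d21, with the proton channel Hvcn1, which balances the charge that the oxidase moves, at 2.17 ± 0.21 (log2, edgeR adjusted p = 1.17e-06), Rap1a at 0.91 ± 0.18 and the homolog Nox4 at -2.11 ± 0.42. Ncf1 gave 0.86 ± 0.36 (adjusted p = 0.0603) and Rac1 -0.27 ± 0.11 (adjusted p = 0.0561). Of 18 ITAM genes 12 rose, Syk among them (1.36 ± 0.22), and 2 fell, and of 11 ITIM genes 4 rose and 1 fell. For falls all 3 of these lists lay under the share of all genes. Among 10 other immunoglobulin receptors tested, 9 rose and 1 fell, led by the B cell receptors for IgE and IgM, Fcer2a (5.10 ± 0.49) and Fcmr (5.08 ± 0.60), and by Fcrl1 (3.19 ± 0.32), with Fcrlb lower (-4.12 ± 0.47). Neutrophil markers summed to 12366 to 29258 CPM and B cell markers to 592 to 789 CPM on d21, against 2535 to 4122 and 13 to 23 CPM on d3, and 10 of 12 neutrophil markers rose. The part of these cells in the rise of Cybb, Ncf4 and Rac2 was not tested.

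The proportions between partners were also compared within each library. The RPKM ratio of Cybb to Cyba was 0.0927 to 0.203 in lean d3, 0.0470 to 0.0602 in DIO d3 and 0.145 to 0.262 in DIO d21 callus. Rac2 exceeded Rac1 in lean d3 libraries (1.16 to 2.17) and was below it in those of DIO d3 (0.414 to 0.625) and DIO d5 (0.379 to 0.704), and reached 2.52 to 2.86 in DIO d21. Of the exon bases of Rac1, 51.4% overlap Daglb on the other strand, which could enter its count. Activating receptors (Fcgr1, Fcgr3 and Fcgr4 summed) exceeded the inhibitory Fcgr2b by 5.47 to 6.22 times in lean d3 and 9.19 to 10.0 times in lean d10 callus, and by 4.63 to 5.08 times in DIO d3 and 5.73 to 8.26 times in DIO d21 callus. On d3 the DIO ratios lay below all lean ones. These are values within libraries, without a test. The size of the excess over Fcgr2b depends on the exon lengths used, 5790 bases for Fcgr2b against 1736 for Fcgr3. In CPM the lean d3 means were 120 for Fcgr2b, 146 for Fcgr3, 51.8 for Fcgr1 and 20.7 for Fcgr4. The length of Fcgr2b is the same in every library and does not alter the order of the groups.

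**Figure D4:**
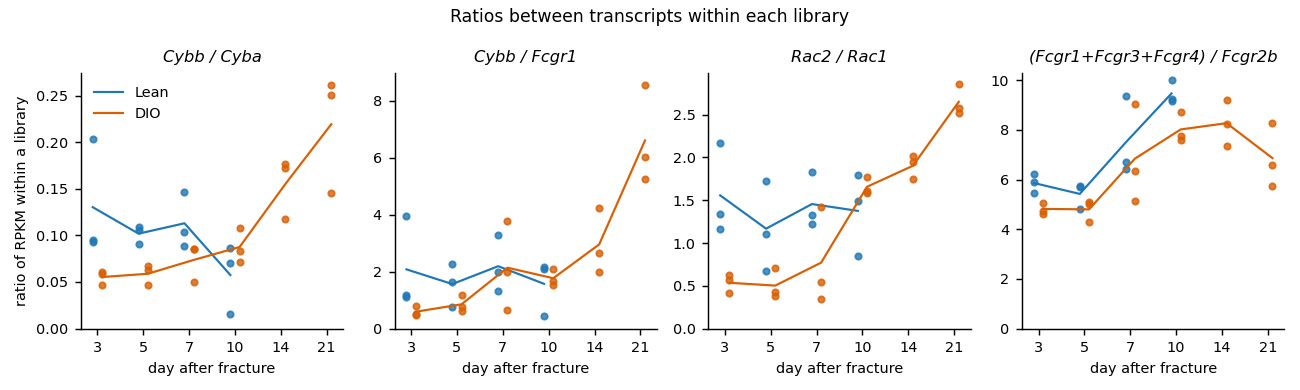
RPKM ratios between members, and of Rac2 to its homolog Rac1, in each library by day after fracture (linear vertical axes) in lean (blue) and DIO (orange) callus. Points are single mice and lines join group means. On d3 the Cybb to Cyba and the Rac2 to Rac1 ratios of all 3 DIO mice lie below those of the 3 lean mice.

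Across the 30 libraries Pearson's r of log2 CPM ran from 0.50 to 0.89 between receptor genes, from 0.27 to 0.86 between a receptor gene and Cybb, and from -0.23 to 0.58 between a receptor gene and Rac2. Fcgr3 and Fcgr4 each reached 0.86 with Cybb, above most receptor pairs. The r was 0.89 for Fcgr3 and Fcgr4, 0.86 for Fcgr3 and Fcer1g, and 0.83 for Fcgr1 and Fcgr2b. On the oxidase side it was 0.87 for Cybb and Ncf4, 0.85 for Cyba and Ncf4, and 0.37 for Cyba and Rac2. Fcgr1 stood out, with r = 0.27 to Cybb and r = -0.23 to Rac2. After each group's mean was subtracted, so that differences between mice of a group were left, Ncf4 and Rac2 reached 0.89 and Fcgr1 and Rac2 gave -0.44. These correlations describe libraries that share diet, day and cell makeup, and carry no p.

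**Figure D5:**
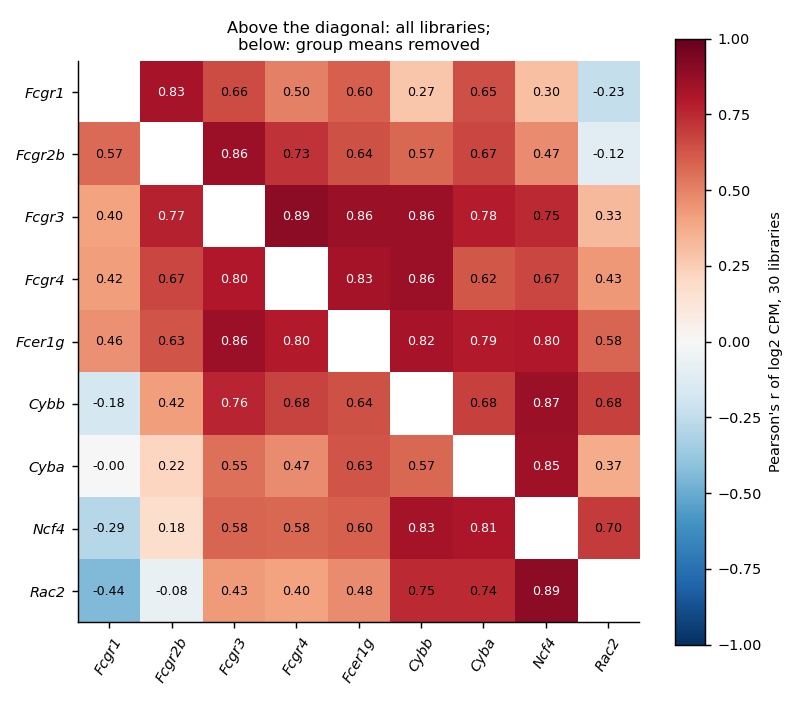
Pearson's r of log2 CPM between each pair of members over the 30 libraries, as deposited in groups (above the diagonal) and after each group's mean was subtracted (below it); red is positive and blue negative. Fcgr1 with Rac2 is the most negative pair above and below the diagonal, at -0.23 and -0.44.

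Genes outside the list with the course most like the mean of the 9 members (standardised log2 CPM, 14725 genes, 30 libraries) were Lyz2, encoding lysozyme (r = 0.97), Myo1f, an unconventional myosin of leukocytes (0.96), the Rac exchange factor Vav1 (0.94), Arrb2 (0.94) and Pirb, an inhibitory receptor (0.94). By Spearman's rank correlation 3 of these 5 were again among the first 5, and after subtraction of group means 1 was, Pirb.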

How the data were processed

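Per the labels, polyadenylated RNA of each callus was made into stranded libraries and read for 53 cycles from both ends. The authors trimmed the reads with BBDuk, aligned them to GRCm38 with HISAT2 2.1.0 and deposited raw HTSeq counts per gene. The strand option of the counting is not given in the sources used here. Everything else was computed from these counts. edgeR 4.0.16 in R 4.3.3 (TMM factors, filterByExpr, two-sided quasi-likelihood F-test, Benjamini-Hochberg adjustment over all genes tested, threshold 0.05) compared diets in the 6 libraries of a day, days within each diet, and the diet difference between days in 24 libraries. The test of all diet terms together used a quadratic curve in the day. The SE of a log2 fold change was its size divided by the square root of F, and intervals at 95% came from that SE. After ±, log2 values carry this SE, and CPM and RPKM carry the SD over 3 mice. The fit was tested on simulated data. RPKM used GENCODE M21 exon lengths, with all annotated exons of a gene joined. With 3 mice a group, the p-values weigh a difference against the variation between mice. That variation was estimated from all libraries of a fit, with information shared across genes.

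The members and gene lists were chosen with earlier results of these data known. The text names all 9 members, Ncf1, Rac1 and Ptprc, and from each list at most the 4 genes of smallest adjusted p, beside any single exception. As genes most like the members it names the 5 with the highest Pearson correlation among genes of at least 1 mean CPM. Mice of the same replicate number were on average most alike in lean d7 against d5, by correlated deviations (0.32 to 0.386). The labels do not state that a number pairs mice. Alternatives were RLE factors, DESeq2 1.42.0, no filter, a replicate block, all 30 libraries in 1 fit, and each library left out. Shared transcript stretches were found with blastn 2.17.0.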

Additional observations from a re-analysis of the deposited data

How the results depend on the processing

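RLE factors in place of TMM changed no count of called members in any of the 19 comparisons. DIO against lean on d3, with 0 members called, gave 3 without the filter, 3 with the replicate block and 3 with DESeq2, and 0 to 1 when 1 library was left out. On d5 the 3 called became 7 without the filter, 0 with the block, 9 with DESeq2 and 0 in the fit of all 30 libraries, with 0 to 6 when 1 was left out. On d7 the 0 became 1, 3 with DESeq2 and 2 in the fit of all 30, with 0 to 2 when 1 was left out. On d10 every setting gave 0. Lean d10 against d7 gave 7 with the block, 6 with DESeq2, 5 in the fit of all 30 and 0 to 4 with 1 left out. All lean days together gave 3 to 7, and lean d10 against d3 7 to 8. Among DIO days, d5 against d3 gave 0 with the block, 2 with DESeq2 and 0 to 2 with 1 left out. DIO d10 against d7 gave 1 without the filter, 1 with DESeq2 and 0 to 1, and d21 against d14 gave 1 with the block, 1 in the fit of all 30 and 0 to 3. DIO d21 against d3 gave 3 to 6, all DIO days 6 to 9 and the diet terms together 6 to 9. Any change of the diet difference gave 3 with DESeq2 and 0 to 1 with 1 left out. The change from d7 to d10 gave 3 without the filter, 1 with the block, 3 with DESeq2, 2 in the fit of all 30 and 0 to 3. In all other settings the count stayed within 1.5 times. Apart from the DESeq2 shares stated above, the shares of all genes called in the alternative settings are not given here. The cause of these shifts was not tested.

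The sign of a log2 fold change that had not been called turned in 10 fits. Fcgr1 on d3 was -0.043 with the replicate block and ran from -0.43 to 0.24 with 1 library left out, and Fcgr2b on d3 from -0.54 to 0.0056. On d10 Cybb ran from -0.020 to 0.84, Cyba from -0.23 to 0.041 and Ncf4 from -0.23 to 0.22, and Ncf4 was 0.0067 with the block. In lean d7 against d5, where mice of the same replicate number were most alike, the block left 0 calls. Weaker likeness on average was also seen in lean d5 against d3, lean d10 against d7, lean d10 against d3 and DIO d14 against d10. Whether a number marks a pairing of mice is not stated in the labels, so the block results stand as an alternative. Depth was 13247122 counts or more in every library.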
